A study of Mus musculus with 10 samples.

Results

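Replication-dependent histone genes were examined in cultured muscle stem cells of the mouse (MuSCs), which rebuild injured muscle fibres, with and without the methyltransferase gene Kmt5b (Suv4-20h1). The genes were chosen by name, as autosomal genes whose deposited symbol was that of a clustered histone gene, and peak scores were summed for each gene identifier. The rule gave 32 of the 17386 autosomal genes listed with a peak. All 32 were listed with a peak of RNA polymerase II phosphorylated at serine 2 (Pol II S2P), the elongating form of the enzyme, among 11037 genes. Only 3 of them, H1fx, Hist1h2be and Hist1h4j, were also listed with a peak of histone H4 monomethylated at lysine 20 (H4K20me1), among 13763 genes.

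Both marks were mapped by CUT&RUN: a nuclease tethered to an antibody cuts out the DNA around its target, and that DNA is sequenced. MuSCs were purified with magnetic beads from C57BL/6 mice and cultured. Control cells (Ctrl) carried the genotype Pax7CreERT/Suv4-20h1WT and the mutant cells (sKO) Pax7CreERT/Suv4-20h1KO, so both carried the Pax7-driven, tamoxifen-inducible Cre recombinase, and tamoxifen was given at 8 to 12 weeks of age. Each genotype had 2 libraries for each antibody, and every value is a score, the authors' normalised coverage of a peak. The 2 IgG libraries were not analysed here.

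Histones package DNA, and proliferating cells must make large amounts of them while the genome is copied. The genes for the core histones H2A, H2B, H3 and H4 and for the linker histone H1 are therefore switched on together in S phase, in a nuclear compartment called the histone locus body, where NPAT drives their transcription. Their messages carry no poly(A) tail. They end after a short hairpin in the RNA, the histone stem-loop, which is bound by SLBP and cut with the help of the U7 snRNP. H4K20me1 is laid down by KMT5A and is the substrate that KMT5B converts to the di-methylated state. The mark is abundant over the bodies of many genes and peaks late in the cell cycle.

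The genes fell into 5 clusters or single positions of the mouse assembly GRCm38 (mm10), the build of the deposited tables. In the Hist1 cluster on chromosome 13 lay 24 of them, in 3 separate stretches, with 6 genes in a proximal stretch at chr13:21716422-21789213, 3 in a middle stretch at chr13:22035870-22042944 and 15 in a distal stretch at chr13:23531050-23762386. The Hist2 cluster at chr3:96220361-96270132 held 5, chromosome 6 held Hist4h4 and H1fx, and Hist3h2a lay on chromosome 11. By protein they coded for H4 in 7 cases, H3 in 8, H2B in 9, H2A in 7 and H1 in 1. The deposited tables gave the 32 identifiers only 15 symbols, with H4c1 standing for 7 genes and Hist1h3b for 6, so each gene is named here by its identifier in GENCODE M21, where the coordinates of all 32 were the same.

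The stem-loop is shown because it tests the label on the sequence itself. A 6-base stem closing a 4-base loop was found within 150 bases after the stop codon in 63 of the 67 protein-coding Hist genes of the annotation and in 31 of the 32 genes examined here, 22 to 55 bases past the stop with a median of 32. It took 6 forms. The 6 lines below give each form as DNA of the coding strand in GRCm38, with the stem in capitals and the loop in lower case, and with a gene that carries it.
Hist1h3d, chr13:23576244-23576259, plus strand: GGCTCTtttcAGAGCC
Hist1h4d, chr13:23581950-23581965, plus strand: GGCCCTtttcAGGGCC
Hist1h3c, chr13:23745047-23745062, minus strand: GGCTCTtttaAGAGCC
Hist1h4i, chr13:22040966-22040981, minus strand: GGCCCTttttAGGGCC
Hist2h2ac, chr3:96220418-96220433, minus strand: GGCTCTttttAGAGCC
Hist1h4j, chr13:21735437-21735452, plus strand: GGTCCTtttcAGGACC
The form of Hist1h3d was present in 19 of the genes, and those of Hist1h4d and Hist1h3c in 4 each. The form of Hist1h4i was found in 2 and each of the last forms in 1. All 7 H4 genes carried a stem other than the one of Hist1h3d. The gene without a stem-loop was H1fx, which codes for the linker histone H1.10 and is known as a replication-independent gene. The label therefore does not hold for H1fx, and the median fold changes are also given without it.

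Promoter sequences in the RefSeq annotation of GRCm38.p6 were matched for 29 of the 32 genes. Hist2h4, Hist1h2bc and Hist1h3a had no match. Short motifs, 3 in all, were searched on both strands in the 250 bases before the start site, each as its exact letters: TATAAA, a form of the TATA box, CCAAT, the core of the CCAAT box, and ATTTGCAT, the octamer that Oct-1 (Pou2f1) binds at H2B genes. The search found TATAAA in 13 of the 29 promoters (44.8%), against 3342 of 25748 RefSeq promoters. CCAAT was present in 23 (79.3%), against 34.3%, and the octamer in 9 (31.0%), against 1.63%. No motif is contained in another, but TATAAA can overlap its own reverse complement.

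The last 150 bases before the start site are printed for 6 genes, with matches to any of these motifs or their reverse complements in capitals. They are Hist1h4i, Hist1h3d, Hist1h2bg and Hist2h2bb, which passed the Pol II S2P test on libraries set to equal totals, and Hist1h2bk and Hist3h2a, which did not. In this order they lie at chr13:22041363-22041512 on the minus strand, chr13:23575613-23575762, chr13:23571250-23571399, chr3:96269550-96269699, chr13:22035671-22035820 and chr11:58954535-58954684, the last 5 on the plus strand.
Hist1h4i: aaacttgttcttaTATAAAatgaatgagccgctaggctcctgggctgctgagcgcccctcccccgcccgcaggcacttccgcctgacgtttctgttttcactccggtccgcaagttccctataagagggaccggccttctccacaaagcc
Hist1h3d: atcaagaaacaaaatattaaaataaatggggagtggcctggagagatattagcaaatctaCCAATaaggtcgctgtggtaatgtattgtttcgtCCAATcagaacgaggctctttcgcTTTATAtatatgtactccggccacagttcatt
Hist1h2bg: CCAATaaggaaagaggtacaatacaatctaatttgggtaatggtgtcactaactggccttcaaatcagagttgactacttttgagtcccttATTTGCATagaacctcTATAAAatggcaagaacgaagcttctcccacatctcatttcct
Hist2h2bb: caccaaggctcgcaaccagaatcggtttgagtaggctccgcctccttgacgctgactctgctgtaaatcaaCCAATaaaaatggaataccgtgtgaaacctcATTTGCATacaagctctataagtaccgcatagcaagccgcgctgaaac
Hist1h2bk: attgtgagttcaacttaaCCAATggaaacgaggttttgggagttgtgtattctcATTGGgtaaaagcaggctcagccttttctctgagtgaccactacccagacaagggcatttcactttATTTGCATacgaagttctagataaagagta
Hist3h2a: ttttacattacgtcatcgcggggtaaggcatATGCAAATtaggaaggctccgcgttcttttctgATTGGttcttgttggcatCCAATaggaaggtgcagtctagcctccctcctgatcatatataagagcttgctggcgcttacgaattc
TATAAA or its reverse complement is present in the printed bases of Hist1h4i, Hist1h3d and Hist1h2bg, CCAAT in those of every gene but Hist1h4i, and the octamer in Hist1h2bg, Hist2h2bb, Hist1h2bk and Hist3h2a. With 6 promoters this is a description of the sequences only. Histone promoters often serve neighbouring genes in both directions. Among the 67 protein-coding Hist genes of the annotation there were 12 such divergent pairs, with starts 176 to 306 bases apart. Of these pairs, 7 had 1 gene in the set, 2 had both and 3 had none. Since the tables list each peak with 1 gene at most, the score of a gene can belong in part to its divergent partner.

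Library totals over autosomal peaks lay between 3224367 and 4836482 for Pol II S2P, with the sKO libraries holding both the highest and the third highest. H4K20me1 totals were 13533657 and 18103713 (Ctrl) against 29655556 and 32238286 (sKO). The scores are not numbers of reads, and the study's own read totals per library were not drawn on, so no counting interval is given. For Kmt5b itself the Pol II S2P score (24 and 62 in the Ctrl pair, 48 and 22 in the sKO pair) was too low for testing and its H4K20me1 score (1332 and 1740 in the Ctrl pair, 1934 and 2196 in the sKO pair) is no measure of its RNA, so these marks gave no check of the deletion. Of 8 muscle stem cell markers, 6 had a Pol II S2P peak with a mean score over 50, with no listed peak for Myf5 or Cdh15. Of 12 autosomal markers of other muscle cells, 3 did, Pecam1 at 108, Cd68 at 990.75 and Rgs5 at 70.75.

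The first question was where the elongating polymerase sat on these genes. A Pol II S2P peak overlapped 43 of the 67 Hist genes (64.2%), against 10405 of 20807 protein-coding autosomal genes and 21.2% of those shorter than 2500 bases. The share was 72.2% for H2B genes and 53.8% for H4 genes. In and beside the middle Hist1 stretch all 5 annotated genes carried a peak. Of the overlapped genes, 12 were not in the set. They were the linker histone genes Hist1h1b, Hist1h1c and Hist1h1e, listed under other symbols, and 9 with no peak listed under their own identifier.

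The 43 Pol II S2P peaks listed with the histone genes were short, with a median of 573 bases and a range of 201 to 1318. Most sat at the gene's edges. Of the 43, 20 were centred before the start site (46.5%), 16 inside the gene (37.2%) and 7 past its end (16.3%). For all gene-listed autosomal peaks the shares were 7.01%, 91.6% and 1.41%, and for genes shorter than 2500 bases 23.1%, 70.4% and 6.59%. A centre within 500 bases of the start was found for 25 of them, and 10 reached 2 or more histone genes. Sequence shared between gene copies can also matter, since only unique alignments were kept. A 75-base window of the peaks occurred elsewhere in the genome for a median of 1.67% of windows per gene, with none for 14 genes and at most 27.3%, for Hist1h4c. Only windows inside peaks were searched, and these peaks rest on unique alignments. The values therefore do not show how much of the gene bodies outside the peaks is repeated.

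**Figure D1:**
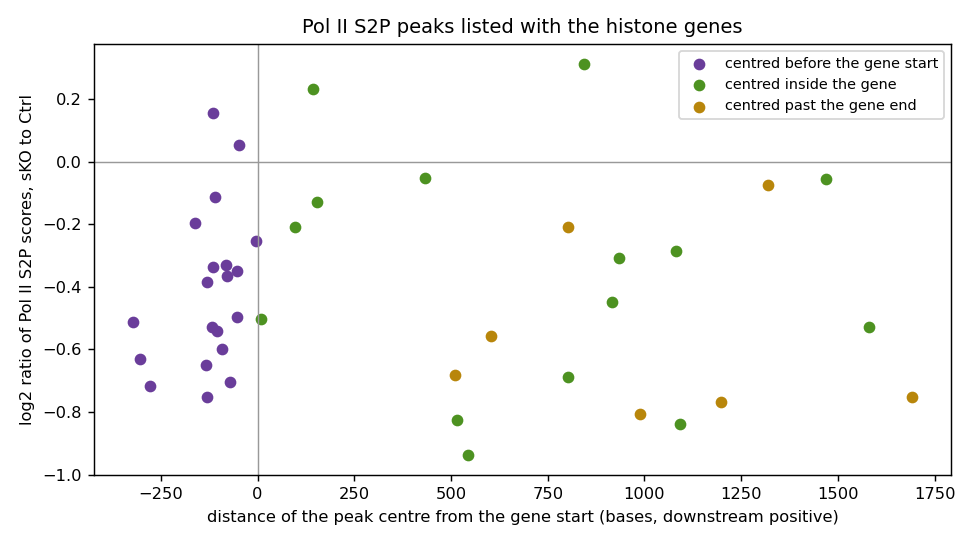
Positions of the Pol II S2P peaks along the histone genes (distance of the peak centre from the annotated start site, in bases, on the x axis) against the log2 ratio of summed sKO to summed Ctrl scores (y axis), with 1 point per peak, coloured by position. Of the 43 peaks, 42 are shown, since the Hist1h2be peak lies 36 kb from its annotated start; points under 0 are seen before the start, inside the gene and past its end.

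Scores per kb of peak placed the histone genes above the middle of all genes in Ctrl and below it in sKO. In the first Ctrl library the median of the 29 tested genes was 167 per kb, at percentile 81.9 of all tested genes. In the second it was 173, at percentile 63.3. The sKO medians were 153, at percentile 30.2, and 114, at percentile 35.5. Each sKO library was thus lower than each Ctrl library in level and in rank, while the median of all genes was 120 and 158 (Ctrl) against 176 and 127 (sKO). Per kb of gene body the histone median stood at percentiles 98.4 and 98.0 (Ctrl) against 96.9 and 97.3 (sKO), so the place below the middle in sKO holds for the peak scale alone. The gene-body scale also divides score from outside the gene by the gene's length. Of the 43 peaks, 26 had most of their length outside the listed gene, against 7.41% of all gene-listed autosomal peaks.

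The share of the whole autosomal Pol II S2P score held by the histone genes does not depend on how libraries are scaled against each other. It was 0.136% and 0.118% in Ctrl, a mean of 0.127% ± 0.013 (SD, n = 2), and 0.0792% and 0.0925% in sKO, a mean of 0.0858% ± 0.0094 (SD, n = 2). The groups did not overlap, and the ratio of the means was 0.676. For the genes on chromosome 13 the share was 0.106% and 0.0887% (Ctrl) against 0.0556% and 0.0662% (sKO), a ratio of 0.626. For the genes on the other chromosomes the shares were 0.0304% and 0.0291% (Ctrl) against 0.0236% and 0.0262% (sKO), a ratio of 0.838. Relative to the median of all genes in each library, the median histone gene stood at 0.13 and −0.13 in Ctrl, centred on their mean, and at −0.61 and −0.55 in sKO on the log2 scale.

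Genotypes were compared gene by gene with limma on log2(score + 1), over the 8531 autosomal genes with a mean score over 50. A gene counted as called if its adjusted p (Benjamini-Hochberg) was under 0.1 and its log2 fold change was beyond 0.5 in either direction. The added 1 shrinks the fold changes of low genes. Of the 32 histone genes, 29 were tested. Hist1h4h, Hist1h4j and Hist1h3e stayed under the limit, which fell between Hist2h3b with a mean of 52.00 and Hist1h4h with a mean of 46.75. On the deposited scale limma called 0 of the 29 lower in sKO and 0 higher, as it did for all genes (0.0% of 8531 in either direction). An unadjusted p under 0.05 was reached by 1 histone gene, Hist1h4i, and by 100 of the 8531 genes, of which 5 were lower. The Ctrl totals differed from each other, as did the sKO totals, and this spread enters every gene of a library alike.

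The histone genes nevertheless stood to 1 side of the other genes. Their median log2 fold change was −0.50, with quartiles of −0.65 and −0.28 and a range of −0.84 to 0.23, and 26 of the 29 values were negative. All tested genes had a median of 0.089 with quartiles of −0.072 and 0.27. Both sKO libraries lay below both Ctrl libraries in 19 of the 29 genes (65.5%), where 4.52% of all tested genes showed that order. The opposite order was seen in 0 of the 29, against 9.41% of all genes. Without H1fx the median was −0.51. The 183 other tested protein-coding genes shorter than 2500 bases had a median of 0.068.

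**Figure D2:**
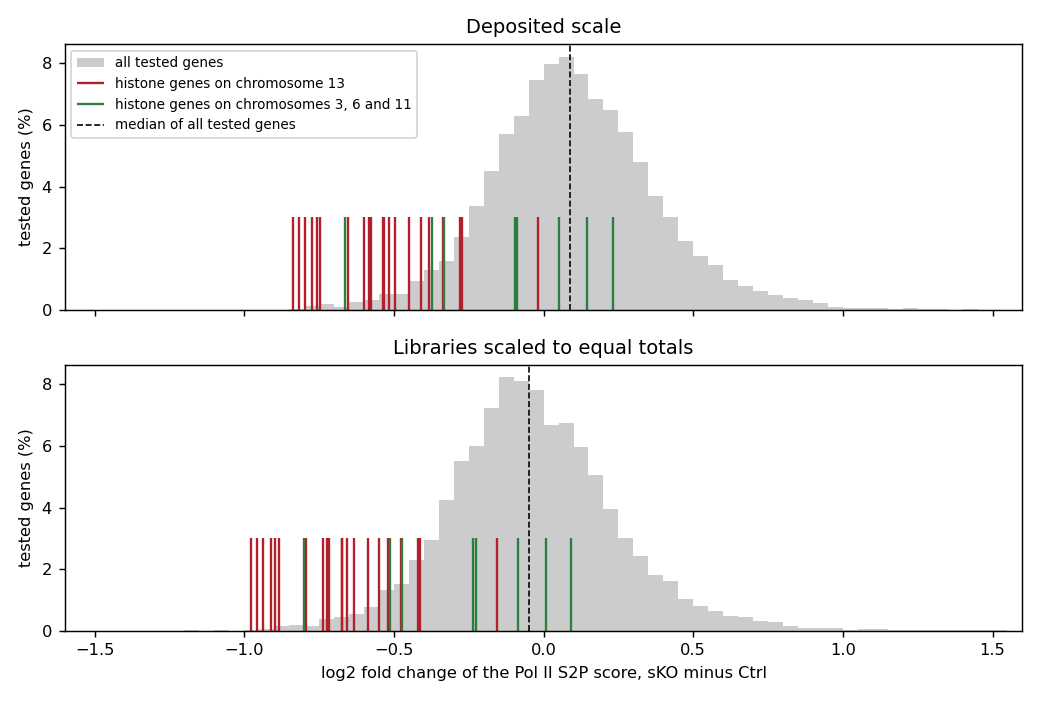
Histogram of the log2 fold change of Pol II S2P (sKO minus Ctrl, x axis) over all 8531 tested genes (percent of tested genes, y axis), on the deposited scale above and at equal totals below, with a vertical line for each of the 29 tested histone genes, coloured by chromosome 13 or chromosomes 3, 6 and 11, and a dashed line at the median of all genes. The histone lines run from −0.84 to 0.23 on the deposited scale, and those left of the bulk are mostly of chromosome 13; the height of these lines carries no value.

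When the 4 libraries were set to equal totals, which takes out the spread in scale, 11 of the 29 histone genes were called lower in sKO (37.9%) and 0 higher, against 0.856% of all tested genes called lower (73 genes) and 1.27% called higher. The 11 made up 15.1% of all genes called lower. The median was −0.63 for the histone genes, −0.65 without H1fx and −0.050 for all genes, and 23 of the 29 had both sKO libraries below both Ctrl libraries, against 26.9% of all genes. Quantile normalisation gave 7 calls (0.34% of all genes) and scaling by the median ratio 11 (0.656%). The number of calls rested on single libraries. Without the first sKO library 0 histone genes were called, without the first Ctrl library 1, without the second sKO library 5 and without the second Ctrl library 12, while all genes called lower numbered 8, 19, 25 and 196. The histone median less that of all genes stayed between −0.72 and −0.46 in these leave-outs.

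H4 genes are described first among the core histones. Whether groups overlapped is stated for the scores on the deposited scale, unless another scale is named. Hist1h4i, in the middle Hist1 stretch, had Pol II S2P scores of 228 and 282 (Ctrl) against 142 and 145 (sKO). Both sKO values lay well below both Ctrl values. Its log2 fold change was −0.82 ± 0.41 (SE, adjusted p = 1.0, limma) on the deposited scale and −0.96 ± 0.20 (SE, adjusted p = 0.00593) at equal totals, the smallest adjusted p among the histone genes. Hist1h4d, in the distal stretch, had 183 and 211 (Ctrl) against 161 and 107 (sKO), and it was called at equal totals with −0.72 (adjusted p = 0.0492). Hist2h4, in the Hist2 cluster, had 105 and 120 (Ctrl) against 137 and 99 (sKO), so that its groups overlapped, with a log2 fold change of 0.053 ± 0.42 that turned to −0.086 at equal totals. Among the untested H4 genes, Hist1h4j had 50 and 61 (Ctrl) against 34 and 23 (sKO), and Hist1h4h had 50 and 60 against 36 and 41. The remaining H4 genes were Hist1h4c, with 71 and 62 against 57 and 41, and Hist4h4, with 94 and 103 against 119 and 71. In sum the sKO values were below the Ctrl values in Hist1h4i, Hist1h4d, Hist1h4j, Hist1h4h and Hist1h4c, all on chromosome 13, and overlapped them in Hist2h4 and Hist4h4.

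H3 genes held the highest score in the set. Hist1h3d, in the distal stretch, had 342 and 315 (Ctrl) against 236 and 184 (sKO), with a log2 fold change of −0.65 ± 0.41 (SE) on the deposited scale and −0.79 ± 0.17 (SE, adjusted p = 0.0113) at equal totals. Hist1h3b had 159 and 171 (Ctrl) against 124 and 76 (sKO), with −0.76 ± 0.41 (SE) and, at equal totals, −0.90 (adjusted p = 0.0261). In both genes the groups were apart. Hist1h3c, with 194 and 204 against 153 and 123, was also called at equal totals with −0.67 (adjusted p = 0.0732). Hist1h3a, at the far end of the cluster, had 230 and 232 (Ctrl) against 186 and 196 (sKO), a small difference of −0.27 that did not pass. Its groups were apart on the deposited scale but overlapped at equal totals. The Hist2 genes differed in this respect. Hist2h3c2 had 185 and 217 (Ctrl) against 222 and 160 (sKO), and Hist2h3b had 33 and 69 against 50 and 56, with log2 fold changes of −0.088 and 0.14 ± 0.53 (SE) and overlapping groups. Hist1h3h, with 83 and 116 against 75 and 64, was not called on either scale, and Hist1h3e, with 37 and 41 against 43 and 29, was not tested.

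H2B genes gave 5 of the 11 calls. Hist1h2bc had the lowest log2 fold change in the set, with scores of 107 and 116 (Ctrl) against 66 and 58 (sKO), and values of −0.84 ± 0.45 (SE) on the deposited scale and −0.98 ± 0.27 (SE, adjusted p = 0.0488) at equal totals. Hist1h2bg had 206 and 213 (Ctrl) against 131 and 114 (sKO) (−0.91 at equal totals, adjusted p = 0.0133), and the groups of both genes were far apart relative to the spread within them. Hist2h2bb was the only gene outside chromosome 13 that was called at equal totals. It had 150 and 170 (Ctrl) against 116 and 87 (sKO), with −0.80 (adjusted p = 0.0486). Hist1h2bb had 218 and 203 against 175 and 123 (−0.66, adjusted p = 0.0807), and Hist1h2bf had 131 and 156 against 104 and 85 (−0.74, adjusted p = 0.0942). These pairs did not overlap either. Hist1h2bk was the exception in its stretch, with 118 and 123 (Ctrl) against 108 and 131 (sKO) and a log2 fold change of −0.018 ± 0.41 (SE), although its middle-stretch neighbour Hist1h4i had the smallest adjusted p. Hist1h2be had 99 and 147 (Ctrl) against 49 and 104 (sKO), with −0.75 ± 0.43 (SE), and its groups overlapped on the deposited scale but not at equal totals. The last H2B genes were Hist1h2bm, with 190 and 186 against 157 and 127, and Hist1h2bp, with 117 and 179 against 159 and 89, and neither was called.

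H2A genes gave 1 call. Hist1h2ag had 109 and 101 (Ctrl) against 78 and 46 (sKO), with −0.80 ± 0.45 (SE) on the deposited scale and −0.94 ± 0.28 (SE, adjusted p = 0.0735) at equal totals. The 2 sKO libraries differed from each other but stayed below both Ctrl libraries. Hist3h2a, the lone gene on chromosome 11, showed the highest log2 fold change in the set, 0.23 ± 0.41 (SE), from scores of 167 and 265 (Ctrl) against 272 and 225 (sKO) that overlapped. Without the first Ctrl library its value was −0.099, so its sign rested on that library. Hist1h2ac had 148 and 171 (Ctrl) against 99 and 121 (sKO), Hist1h2ae 135 and 142 against 121 and 99, and Hist1h2ai 103 and 84 against 81 and 47, all without overlap. Hist2h2ac, with 154 and 186 against 124 and 145, did not overlap either, whereas Hist1h2ak, with 103 and 151 against 114 and 80, did. The linker histone gene H1fx had 91 and 91 (Ctrl) against 100 and 49 (sKO), with −0.37 ± 0.45 (SE). Its sKO libraries lay on both sides of the Ctrl values on the deposited scale and below them at equal totals.

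**Figure D3:**
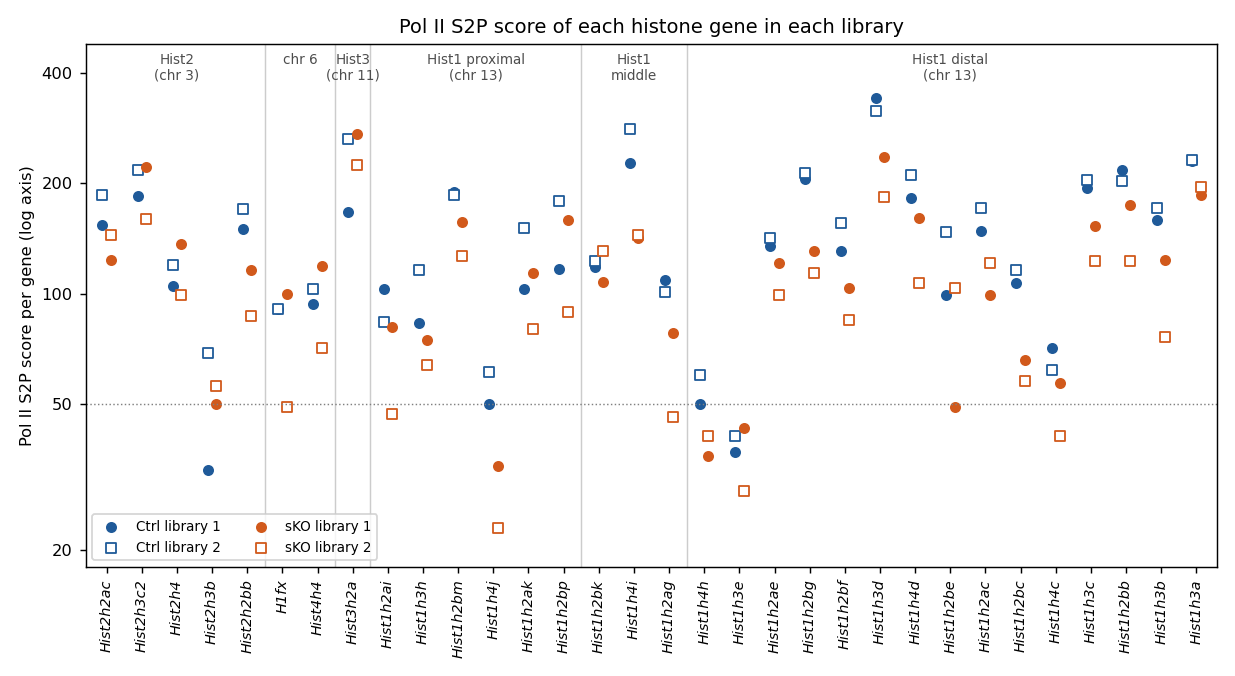
Pol II S2P scores (y axis, log scale) of the 32 histone genes (x axis, ordered by genomic cluster), with 1 point per library, Ctrl in blue and sKO in orange, filled circles for library 1 and open squares for library 2; the dotted line is the testing limit of 50 for the mean. On the deposited scale the sKO points lie below both Ctrl points in 21 of the 32 genes and overlap them in 11. Among the 29 tested histone genes that order was seen in 19 (65.5%), against 4.52% of all tested genes.

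By position, the genes on chromosome 13 had lower values than the others. The 21 tested genes on chromosome 13 had a median of −0.54, all 21 values were negative, and 17 had both sKO libraries below both Ctrl libraries. The 8 on other chromosomes had a median of −0.092, with 5 negative and 2 in that order. Of all 8531 tested genes, 3035 were negative and 4.52% showed that order. At equal totals the medians on chromosome 13 and elsewhere were −0.67 and −0.23 and the calls 10 and 1. Of all tested genes 0.856% were called lower at equal totals. Within Hist1 the medians were −0.41 in the proximal stretch (5 genes), −0.80 in the middle (3 genes) and −0.58 in the distal (13 genes). By class the medians ran from −0.60 for H2B and −0.50 for H3 to −0.45 for H4 and −0.38 for H2A. A peak over the starts of a divergent pair is listed with 1 gene at most. Whether the difference between H2A and H2B, in medians and in calls, depends on that listing was not tested. The difference between chromosomes was not tested, since neighbouring genes share peaks and are not replicates.

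**Figure D4:**
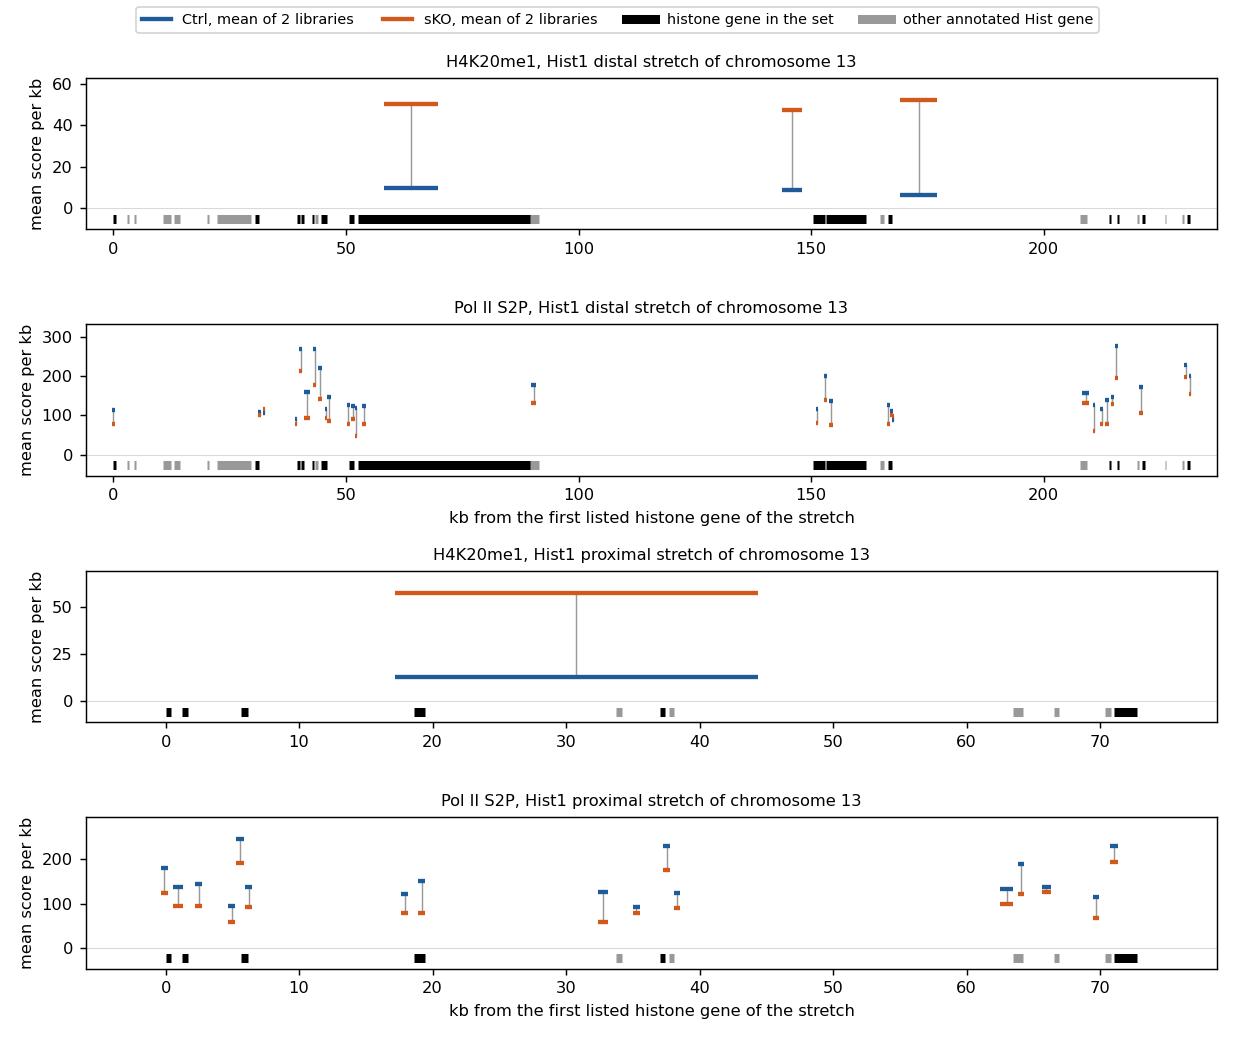
Mean score per kb of peak (y axis) in Ctrl (blue) and sKO (orange), each the mean of 2 libraries, for H4K20me1 and Pol II S2P peaks along the distal and proximal Hist1 stretches (x axis, kb from the first listed histone gene), with a thin line joining the means of a peak and gene models below in black for the set and grey for other Hist genes. The H4K20me1 means are higher in sKO in all 4 peaks, and the Pol II S2P means are lower in sKO in nearly all peaks, also where no gene of the set lies.

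Most Pol II S2P peaks inside the Hist1 stretches had sKO-to-Ctrl ratios under 1, also those not listed with the set. The log2 ratio of summed scores was under 0 in 32 of the 33 peaks listed with the histone genes of the set, in 5 of the 5 listed with another gene and in 13 of the 15 listed with none, whose median was −0.56. Over all autosomal Pol II S2P peaks the share under 0 was 36.8%, and over those listed with no gene 30.3%. In the Hist2 cluster it was 5 of 9. The linker histone genes inside Hist1 had log2 fold changes of −0.47 for Hist1h1b, −0.42 for Hist1h1e and −0.26 for Hist1h1c. In all 3 the sKO libraries were below the Ctrl libraries, an order seen in 4.52% of all tested genes. None of the 3 was called at equal totals. Along the gene, peaks centred before the start had a median log2 ratio of −0.44 (18 of 20 under 0), those inside it −0.38 (14 of 16) and those past its end −0.68 (7 of 7).

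Other genes of histone supply were read from lists chosen beside the set. Replication-independent histone genes, most of which are also active outside S phase, had 10 tested genes with a median of −0.16. Their values lay between −0.37 for H1fx, which is also in the set, and 0.014 for H3f3b, and 0 were called on either scale. The genes that transcribe and process histone messages (13 tested) had a median of 0.034, between −0.43 for the cell-cycle transcription factor E2f1 and 0.41 for Lsm10, a subunit of the U7 snRNP. Of these, E2f1 was called lower at equal totals (−0.57, adjusted p = 0.0634). Histone chaperones (8 tested) had a median of 0.16 and 0 calls. S phase genes (12 tested) had a median of −0.11, between −0.49 for Pcna, the sliding clamp of DNA polymerase, and 0.24 for Ccne2, the cyclin of S phase entry, and Pcna was called lower at equal totals (−0.63, adjusted p = 0.0456). The limma counts on the deposited scale were 0 for all 4 lists. At equal totals the medians were −0.30 (replication-independent), −0.11 (histone expression), 0.021 (chaperones) and −0.25 (S phase), against −0.050 for all tested genes. All 10 replication-independent genes were negative at equal totals, as were 10 of the 12 S phase genes, against 4945 of all 8531 tested genes. In 6 of these 10 replication-independent genes both sKO libraries lay below both Ctrl libraries on that scale, against 26.9% of all tested genes. Histone genes are active mainly in S phase, and from bulk scores alone fewer cells in S phase and less polymerase per cell cannot be told apart. By flow cytometry of cultured MuSCs, the paper found no significant difference between the genotypes in the percentage of S phase cells. It saw slightly more sKO cells in the phases after S phase. The part of S phase genes in the histone values was not tested.

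H4K20me1 covered few histone genes. A peak overlapped 5 of the 67 Hist genes (7.46%), against 72.5% of all protein-coding autosomal genes and 34.9% of those shorter than 2500 bases. These were Hist1h4j, Hist1h4k, Hist1h2ak and Hist1h2bn, under 1 peak of 27200 bases at chr13:21733600-21760799, and Hist1h2be, whose peak at chr13:23589200-23600799 lies inside a long annotated gene model of 37455 bases and does not reach the stem-loop at chr13:23585531-23585546. H1fx had a peak at chr6:87979600-87984999. H4K20me1 peaks covered 37.4% of the proximal Hist1 stretch, 10.3% of the distal, 14.5% of Hist2 and none of the middle.

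Where H4K20me1 was present, it was called higher in sKO, as it was for most genes. Hist1h4j had scores of 301 and 412 (Ctrl) against 1443 and 1688 (sKO), with a log2 fold change of 2.15 ± 0.27 (SE, adjusted p = 1.14e-13, limma), at percentile 96.7 of all tested genes. Hist1h2be had 93 and 138 (Ctrl) against 535 and 628 (sKO), with 2.35 ± 0.30 (SE, adjusted p = 1.36e-12), at percentile 98.2. H1fx had 54 and 107 (Ctrl) against 275 and 215 (sKO), with 1.66 ± 0.38 (SE, adjusted p = 3.01e-05), at percentile 87.0. No sKO library overlapped a Ctrl library in any of them. On the deposited scale 3 of 3 were called higher, against 92.3% of 13750 tested genes, whose median was 1.11, so the count by itself does not set the histone genes apart. At equal totals 3 of 3 were called, against 20.8% of all genes, with values of 1.37 for Hist1h2be, 1.16 for Hist1h4j and 0.69 for H1fx (adjusted p = 0.0463) and a median over all genes of 0.13. Under the other 2 scalings 2 of the 3 were called. H1fx was not called by quantile normalisation (0.255, adjusted p = 0.482, limma) or by the median ratio (0.565, adjusted p = 0.107). The median of the histone genes was 2.15, or 2.25 without H1fx, and at equal totals 1.16, or 1.27 without it.

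Per kb of peak, the median H4K20me1 level of the 3 genes stood low among all genes in Ctrl, at percentiles 3.43 and 7.37. In sKO it stood above the middle, at percentiles 67.2 and 60.4. Per kb of gene body the median stood high in both, at percentiles 83.3 and 90.4 (Ctrl) against 93.6 and 91.3 (sKO). The low place of the median in Ctrl thus holds for the peak scale alone. On the gene-body scale the median was the value of H1fx in every library, and the 3 genes lay far apart. In the first Ctrl library they ran from 2.48 for Hist1h2be to 389 for Hist1h4j. Hist1h2be was below the median of all genes in every library. Hist1h4j has a 27200-base peak divided by a gene length of 774 bases. The share of the autosomal score held by the 3 genes was 0.00331% and 0.00363% (Ctrl) against 0.0076% and 0.00785% (sKO), a ratio of 2.23. The gain was not limited to peaks listed with the set. All 5 H4K20me1 peaks that touch the 3 Hist1 stretches or Hist2 had log2 ratios of summed scores between 2.14 and 3.01, with a median of 2.33, against a median of 1.13 and quartiles of 0.81 and 1.48 over 41008 autosomal peaks. The highest of the 5 was over Hfe, an iron-regulating gene inside the distal stretch, with scores of 51 and 53 (Ctrl) against 375 and 463 (sKO) and a log2 fold change of 2.98 ± 0.37 (SE, adjusted p = 8.14e-14). Between the first and the last histone gene of Hist1, 9 genes outside the set, Hfe among them, were tested for H4K20me1. All 9 were called higher, against 92.3% of all tested genes, with a median of 1.53 against 1.11. At equal totals 5 of the 9 were called higher, against 20.8% of all tested genes.

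**Figure D5:**
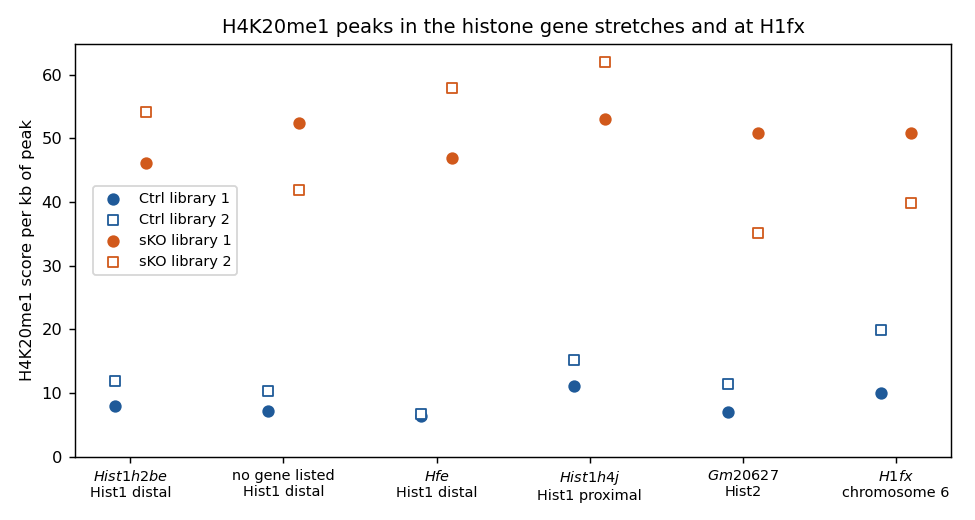
H4K20me1 score per kb of peak (y axis) in each of the 4 libraries, Ctrl in blue and sKO in orange, filled circles for library 1 and open squares for library 2, for the 5 peaks in the histone gene stretches and the H1fx peak (x axis). In each peak both sKO libraries lie above both Ctrl libraries, and the log2 ratios of the 5 peaks in the stretches run from 2.14 to 3.01. Summed by gene, 13268 of 13750 tested genes had the same order on the deposited scale.

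The listed genes of histone supply had lower H4K20me1 differences than the 3 histone genes. The median log2 fold change was 0.55 for 6 replication-independent histone genes, of which 3 were called higher, 0.73 for 14 genes of histone expression, of which 12 were called, 0.71 for 6 chaperones, of which 5 were called, and 0.86 for 12 S phase genes, of which 11 were called. All 4 medians were below the 1.11 of all tested genes, of which 92.3% were called higher. At equal totals H1fx, which belongs to both the set and the replication-independent list, was the 1 gene of these lists called higher. Called lower at equal totals were 2 replication-independent genes, 2 genes of histone expression (Upf1 and Yy1), 1 chaperone (Nap1l1) and 0 S phase genes, by limma, and the list medians were −0.42, −0.25, −0.27 and −0.12. Only 3 genes of the set were listed with peaks of both marks, with Hist1h2ak as a further gene under the H4K20me1 peak credited to Hist1h4j, and no relation between the differences of the 2 marks was computed. For Pol II S2P, Hist1h4j had both sKO libraries below both Ctrl libraries. The groups of Hist1h2be and H1fx overlapped on the deposited scale but not at equal totals.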

How the data were processed

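The authors trimmed reads with Trimmomatic 0.39, aligned them to mm10 with STAR 2.7.3a, kept unique alignments, removed duplicates with Picard 2.21.7 and, per the labels, added S2 cell DNA as spike-in. The deposited values are a score, whole-number normalised coverage per union peak and library, each peak listed with 1 gene at most. How much of a peak lies in its gene is deposited as a fraction. Whether the scale follows the spike-in was not checked, and this limits differences on the deposited scale. The study describes its replicates as biological.

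Scores were summed by gene identifier, and genes on autosomes with a mean over 50 were compared with limma 3.58.1 (lmFit, eBayes with trend, Benjamini-Hochberg adjustment) in R 4.3.3 on log2(score + 1), after a check on simulated data. The authors' count model was not used, since scores are not read counts. An exact permutation test of 2 against 2 libraries cannot go below 0.333. Sequences were searched with Python 3.11.15, and promoters came from RefSeq, with the first listed start of each gene. The rule for named genes took, per histone class, the highest score and the extreme fold changes, plus genes beside the testing limit and genes in both tables. Other genes were named after their values were seen. The histone genes and the lists were chosen with earlier results of these data known.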

Additional observations from a re-analysis of the deposited data

Results flagged for a closer look

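Inside the distal Hist1 stretch, 1 H4K20me1 peak at chr13:23674800-23678999 was listed with no gene and so entered no comparison of genes. Its Ctrl libraries scored 30 and 43 and its sKO libraries 220 and 176, which gives 2.44 as the log2 ratio of summed scores. Both sKO libraries were above both Ctrl libraries, an order also seen in 13268 of 13750 tested genes. It was picked out because it lay outside the gene-level measurement and was above the level of the control libraries.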

How the results depend on the processing

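The median Pol II S2P log2 fold change of the histone genes (−0.50) was negative under all alternatives run, and the H4K20me1 median (2.15) positive. The H4K20me1 median was 1.16 at equal totals, also with the replicate block or with all overlapping peaks, 0.99 with quantile normalisation and 1.04 with median ratio scaling. Less the median of all genes (1.03) it was 1.15 with a mean over 200 (2 genes) and 1.24 with peaks lying mostly in the gene (1 gene, 1 call). A mean over 200 left 3 Pol II S2P genes, with a median of −0.27, or −0.36 less that of all genes against −0.58. Histone genes called lower for Pol II S2P numbered 0 on the deposited scale, 11 at equal totals or by median ratio, 7 by quantile and 12 at equal totals with overlapping peaks, an alternative chosen after seeing the data like the leave-outs at equal totals. Per kb of gene body, the histone median stood at percentile 86.8 (Ctrl) and 92.4 (sKO) for H4K20me1 and at 98.2 (Ctrl) and 97.1 (sKO) for Pol II S2P.

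Leaving out each library gave H4K20me1 medians of 1.92 to 2.37 (at equal totals 1.11 to 1.22, with 1.18 without Ctrl replicate 2), 3 to 3 calls (2 to 3) and 0.98 to 1.09 less the median of all genes. It gave Pol II S2P medians of −0.68 to −0.29 (−0.76 to −0.52), 0 to 0 calls (0 to 12) and −0.72 to −0.46.

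Same-numbered libraries did not deviate together (correlation 0.041 in H4K20me1, −0.043 in Pol II S2P), so the numbers were not taken to pair them. With the replicate block the calls were 3 in H4K20me1 and 0 in Pol II S2P, and with the block at equal totals 3 and 12.

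Single genes were followed only where the naming rule took them, and among these the sign turned for 5. Over all 29 tested genes, negative Pol II S2P values numbered 26, and between 22 and 29 in the leave-outs. Over the leave-outs H1fx ran from −0.88 to 0.14, positive without sKO replicate 2. Hist1h2bk ran from −0.16 to 0.12 (−0.55 to 0.23 at equal totals) and was positive at 0.011, 0.12, 0.003 and 0.23. Hist2h3b was at −0.001 by quantile, ran from −0.38 to 0.67, and was negative at −0.33 and −0.32 at equal totals. Hist2h4 was at −0.086 at equal totals, also with the block and with overlapping peaks, −0.022 by quantile and −0.048 by median ratio, and in leave-outs ran from −0.18 to 0.29, with −0.043, −0.067, −0.11 and −0.18 as its other negative values. Hist3h2a ran from −0.099 to 0.56, with −0.048 and −0.023 at equal totals. The cause was not tested. Of 266 values of single genes, 199 kept direction and side of the threshold, 41 newly passed it and 4 no longer did. Read totals listed by the study were not used, so counting error is not covered.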
